A study of Mus musculus with 2 samples.

Results

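Mitotic ILC2s of the fetal mouse lung were chosen as the ILC2 barcodes with at least 5 unique molecular identifiers (UMIs, each standing for 1 captured transcript) summed over 8 mitosis genes: Mki67, Top2a, Cdk1, Birc5, Ube2c, Nusap1, Tpx2 and Cenpf. A barcode counted as an ILC2 when it held at least 1 UMI of Gata3, at least 2 UMIs over Il2ra, Il2rb and Tnfrsf18, and at most 2 UMIs of Tyrobp. By these rules 416 of 1744 ILC2s were mitotic, among 8598 singlets and 10648 barcodes in all, and 0 barcodes were repeated. ILC2s with 0 or 1 mitosis UMI, 1237 cells in all, are called low-mitosis ILC2s below, and the 91 ILC2s with 2 to 4 belong to neither group.

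The cells were viable CD45+ lineage-negative ST2+ cells sorted from wild-type fetal lungs at gestation day 18 and read with 10x Genomics 5′ single-cell RNA sequencing. Mothers were 9 weeks old and were given the synthetic glucocorticoid dexamethasone (DEX, dissolved in PBS) at 1.3 µg/ml in their drinking water, or PBS alone in it, from gestation day 12. Each of the 4 litters, DEX-1 (8 fetuses), DEX-2 (9), PBS-1 (5) and PBS-2 (8), was pooled, stained with its own hashtag antibody and loaded together with the others. The strain was C57BL/6J and both sexes were used, by the methods of the study. Fetuses of a litter cannot be told apart, so each group holds 2 samples, 1 per mother by the labels and the methods. A legend in the study names a single dam per group for this experiment, and if the litters of a group were not separate mothers, the spread between them would not be that between mothers.

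ILC2s are innate lymphocytes of barrier tissues that lack antigen receptors, answer to the epithelial alarmin IL-33 through ST2 and secrete type 2 cytokines. In the fetal and neonatal lung the population expands by local division, and in any dividing cell the genome is copied in S phase and the copies are separated in M phase. Genes of these phases are switched on in order: E2F factors act on replication genes at the start of S phase, while the DREAM and MMB complexes act later through a promoter element called the CHR, often beside CCAAT boxes bound by NF-Y, on genes of G2 and M phase.

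The promoters of 5 mitosis genes and 3 replication genes are shown because the early and late genes followed below are known for these elements. Sequences are from RefSeq on GRCm38.p6, end at the base before the annotated start and run 5′ to 3′ on the strand of the gene, and capitals mark CCAAT boxes, the CHR and E2F forms, each on either strand. The CHR was searched as TTTGAA, and the E2F forms searched were TTTGGCGC, TTTCCCGC, TTTGCCGC and TTTCGCGC. In Mcm6 and Mcm5 a forward and a reverse E2F form overlap.
Mki67, chr7:135716380-135716509, minus strand: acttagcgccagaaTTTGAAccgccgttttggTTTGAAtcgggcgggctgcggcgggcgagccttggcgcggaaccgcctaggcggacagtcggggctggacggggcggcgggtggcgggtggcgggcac
Top2a, chr11:99024190-99024319, minus strand: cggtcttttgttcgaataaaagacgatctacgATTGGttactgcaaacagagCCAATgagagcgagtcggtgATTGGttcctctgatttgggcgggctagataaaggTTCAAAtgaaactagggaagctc
Cdk1, chr10:69352913-69353042, minus strand: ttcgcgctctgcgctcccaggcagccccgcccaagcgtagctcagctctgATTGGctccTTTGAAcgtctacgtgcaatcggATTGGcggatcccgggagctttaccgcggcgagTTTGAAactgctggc
Ube2c, chr2:164769799-164769928, plus strand: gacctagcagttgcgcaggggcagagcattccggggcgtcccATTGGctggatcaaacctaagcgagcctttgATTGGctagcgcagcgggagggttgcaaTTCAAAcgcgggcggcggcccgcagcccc
Cdc20, chr4:118437344-118437473, minus strand: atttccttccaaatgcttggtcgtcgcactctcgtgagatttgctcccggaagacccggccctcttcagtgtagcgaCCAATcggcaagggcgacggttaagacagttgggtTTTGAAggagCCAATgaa
Mcm6, chr1:128359706-128359835, minus strand: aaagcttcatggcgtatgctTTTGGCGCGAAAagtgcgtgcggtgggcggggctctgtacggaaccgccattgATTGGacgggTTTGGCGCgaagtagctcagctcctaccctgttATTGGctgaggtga
Mcm5, chr8:75109349-75109508, plus strand: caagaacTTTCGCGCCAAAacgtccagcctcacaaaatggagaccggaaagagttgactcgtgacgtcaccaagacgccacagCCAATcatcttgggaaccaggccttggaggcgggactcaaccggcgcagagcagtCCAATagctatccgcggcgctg
Cdc6, chr11:98907991-98908150, plus strand: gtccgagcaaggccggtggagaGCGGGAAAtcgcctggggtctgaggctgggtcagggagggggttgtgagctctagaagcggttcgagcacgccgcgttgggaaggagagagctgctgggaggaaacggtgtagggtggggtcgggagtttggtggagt

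Positions count back from the base before the start, which is -1. In Mki67 a CHR began at -116 and -98 and in Cdk1 at -71 and -15, while Top2a, Ube2c and Cdc20 had 1 each, at -23, -29 and -18. In the last 4 of these genes a CCAAT box stood 5′ of a CHR, as at -80 and -48 in Cdk1. The windows of the 3 replication genes printed hold an E2F form and no CHR. Over windows from 250 bases before to 50 after the start, 20.2% of 27025 genes with a promoter in the reference held a CHR, 41.1% a CCAAT box and 2.61% an E2F form. The CHR was present in 5 of the 7 rule genes with a window (71.4%), in 18 of 22 spindle and kinetochore genes (81.8%) and in 8 of 16 cyclin, kinase and APC/C genes (50%), while 4 of 25 DNA replication genes (16%), 3 of 17 ILC2 identity genes (17.6%) and 0 of 12 immediate early genes held it. E2F forms were found in 12 of the 25 replication genes (48%) and in 1 of the 22 spindle genes. A match describes these letters in this window and says nothing of binding.

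**Figure D1:**
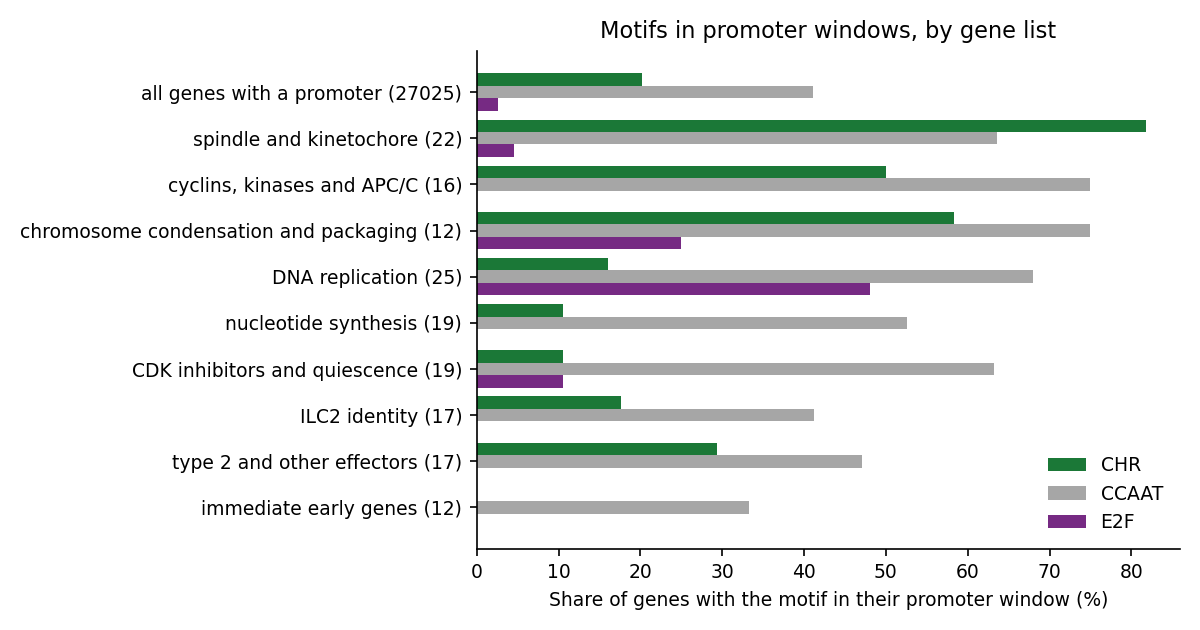
Bars give the share of genes (%) whose promoter window holds a CHR, a CCAAT box or an E2F form, by gene list and over all 27025 genes with a window. The spindle list stands at 81.8% for the CHR against 20.2% of all genes, and the replication list at 48% for the E2F forms against 2.61%.

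The values that chose the mitotic ILC2s are given as a description. The 8-gene sum had a median of 46 UMIs per cell (quartiles 23 and 69) and reached 155, and its medians were 47.5 and 42 in the DEX litters and 52 and 43 in the PBS litters. Ube2c, a ubiquitin-conjugating enzyme of the anaphase-promoting complex, gave 32.5% of the sum, and Birc5, the survivin subunit of the chromosomal passenger complex, gave 21.2%. All 8 genes were detected together in 226 cells (54.3%), and another 94 cells (22.6%) held 7 of them. A UMI of Birc5 was present in 95.2% of mitotic cells, of Mki67 in 93.3%, of Top2a in 93.0%, of Cdk1 in 89.2%, of Ube2c in 88.9%, of Tpx2 in 84.4%, of Nusap1 in 82.0% and of Cenpf in 74.5%. The same genes were detected in 0.323 to 4.69% of low-mitosis cells, whose sum was limited to 1.

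Most ILC2s stood far from the threshold of 5. Among all ILC2s 1049 had a sum of 0 and 188 a sum of 1, while 45, 32 and 14 cells had sums of 2, 3 and 4. Just inside the threshold stood 11, 11 and 9 cells with sums of 5, 6 and 7, and 186 of the mitotic cells reached 50 or more. The 14 cells at 4 had a median of 15893 UMIs in all genes and the 11 cells at 5 had 11247, while over the whole range the median went from 6303 at a sum of 0 and 8137 at 1 to 16531 at 50 to 99 and 20212 at 100 or more.

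**Figure D2:**
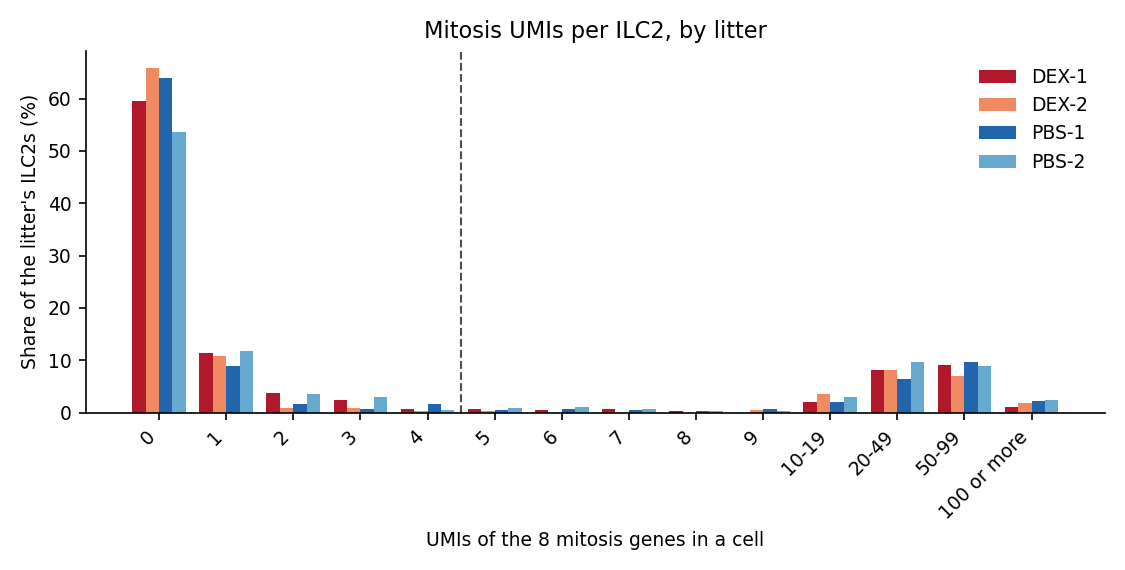
The share of each litter's ILC2s (%) is plotted against the UMIs of the 8 mitosis genes in a cell, in ranges of the sum. In every litter the largest share of cells is at 0, few are between 2 and 4, and a second group lies at high sums, with 186 of all ILC2s at 50 or more.

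The mitotic cells carried the transcripts of the label. Beyond Gata3, which the rule required, Rora was detected in 99.5% of them, Icos in 97.8%, Il7r in 97.1%, Id2 in 90.1%, Thy1 in 81.0% and Il1rl1, which encodes ST2, in 77.9%, whereas Klrg1, a marker of mature ILC2s, was found in 5.77%. In mast-like cells, at a median of 8202 UMIs against 14638 in mitotic ILC2s, Icos was found in 3.32%, Thy1 in 2.43% and Rora in 19.6%, but Il7r in 49.3%, Id2 in 63.0% and Il1rl1 in 90.9%, so the last 3 were common in mast-like cells too. In 36 neutrophil-like cells, at a median of 6066 UMIs, Il7r and Icos were found in 5.56% each, Rora in 11.1%, Il1rl1 in 13.9% and Id2 in 58.3%. Of 8 T and NK cell markers, Cd4 and Ncr1 were at 0 in mitotic cells, and Cd3g, at 384 CPM (UMIs per 1000000 UMIs), made up most of the summed 386 to 422 CPM. Mast cell and basophil markers summed to 180 to 329 CPM in mitotic and 402 to 538 in low-mitosis cells by litter, with Fcer1a at 0 in both.

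The sums behind each litter were of unequal reliability. Total UMIs of the singlets ranged from 18345084 to 34015962 per litter, and those of mitotic ILC2s from 1177669 in DEX-2 to 2268999 in PBS-2. Median UMIs per cell were 14955, 13860, 15098 and 15120 in the mitotic cells of the litters DEX-1, DEX-2, PBS-1 and PBS-2, against 6353, 6612, 6319 and 6949 in their low-mitosis cells. All 4 litters had the deeper mitotic cells, by a ratio of 2.25 ± 0.141 (SD, n = 4; two-sided exact sign permutation p = 0.125, the smallest that 4 litters allow). Genes detected per cell were higher by a ratio of 1.64 ± 0.0429 (SD, n = 4) and by 1.03 once each cell was thinned to 3000 UMIs. The litter's own hashtag differed less than the RNA did, with a ratio of 1.34 ± 0.0315 (SD, n = 4), and the mitochondrial share was lower, with a ratio of 0.758 ± 0.0569 (SD, n = 4). Since the 5-UMI rule is met more readily by a deep cell, depth and state cannot be told apart here. Many comparisons of the states below, though not all, are given again for 208 mitotic and 76 low-mitosis cells within the same range of depth, 11711 to 18213 UMIs (medians 14638 and 13550). This range, called matched depth below, narrows the gap but does not close it, since mitotic cells had the higher median in each litter there too. Its low-mitosis side held only 17, 18, 13 and 28 cells in DEX-1, DEX-2, PBS-1 and PBS-2. Once the marker-rich cells defined below were left out, it held 11, 14, 9 and 23. Values at matched depth therefore carry a large counting error. The range also lies above the upper quartile of depth of low-mitosis cells in every litter (8060 to 9079 UMIs). Its low-mitosis side is thus drawn from the deep end of that state. Of these 76 cells 57 remained without marker-rich cells, which were 5.98% of all low-mitosis cells. Whether they differ otherwise from shallower low-mitosis cells was not tested, so values at matched depth are not read as corrected for depth.

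Some barcodes may hold more than 1 cell or RNA of other cells. Before singlets were chosen, 23 of 439 mitotic barcodes that met the ILC2 rule carried 2 hashtags (5.24%, 95% Wilson interval 3.52 to 7.74%), against 31 of 1268 low-mitosis ones (2.44%, 1.73 to 3.45%); these were left out, and pairs from the same litter cannot be seen. Cells with at least 20 UMIs of a marker list of another class (called marker-rich here) numbered 36 of 416 mitotic cells (8.65%) and 74 of 1237 low-mitosis cells (5.98%). By litter the marker-rich share of mitotic cells was 1.96% and 7.59% in the DEX litters and 9.68% and 13.4% in the PBS litters. Summed epithelial markers were 367, 2606, 10520 and 5322 CPM in the mitotic cells of these litters, lower in both DEX litters than in both PBS litters, and 5169 to 6733 in low-mitosis cells; the median cell of either state held 2 such UMIs. The 8 epithelial markers were all detected. Results that rest on these cells are given with and without them.

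The comparison of litters asks whether maternal DEX altered the fraction of ILC2s in division. DEX-1 had 102 mitotic cells among 458 ILC2s (22.3%, 95% Wilson interval 18.7 to 26.3%) and DEX-2 had 79 among 369 (21.4%, 17.5 to 25.9%). PBS-1 had 93 among 404 (23.0%, 19.2 to 27.4%) and PBS-2 had 142 among 513 (27.7%, 24.0 to 31.7%). Both DEX litters lay below both PBS litters, but the interval of PBS-1 overlapped those of both DEX litters and only PBS-2 had an interval mostly above the others. Mean shares were 21.8% ± 0.609 in DEX and 25.4% ± 3.30 in PBS litters (SD, n = 2), a difference of -3.51 percentage points (two-sided exact permutation p = 0.333, the smallest that 2 against 2 allow). With a sum of 10 or more asked for, or without marker-rich cells, the groups overlapped (-1.69 and -2.13 points). Without PBS-2 the difference was -1.18 points and without PBS-1 it was -5.84. Thinned to 3000 UMIs per cell, with at least 3 mitosis UMIs asked for, the shares were 20.1%, 20.4%, 20.8% and 23.9%, so that DEX-1, DEX-2 and PBS-1 lay within 1 point of one another. Intervals cover counting error only, and shares of a sorted suspension depend on the gate. The ILC2 rule also counts UMIs of Il2rb and Tnfrsf18, which were higher in DEX litters in low-mitosis cells (log2 1.19 and 0.81). Low-mitosis cells may thus meet the rule more readily in DEX litters, so the ILC2 totals may not be alike between the groups. What part this had in the shares was not tested.

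For scale, 5 or more mitosis UMIs were found in 222 of 2679 mast-like cells (8.29%) of the same litters and in 8 of 36 neutrophil-like cells (22.2%), at median depths of 8202 and 6066 UMIs. In the 4175 singlets that were neither ILC2s nor mast-like, the neutrophil-like cells among them, it was 16%.

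Along the range of the sum, replication and mitosis genes followed different courses. Summed over the 30 DNA replication genes of the list, CPM were 1045 in cells with a sum of 0 or 1, 2848 at 2 to 4, 4323 at 5 to 19, 3244 at 20 to 49 and 1693 at 50 or more. The highest level thus lay in the mitotic cells with the lowest sums, and it was there in all 4 litters (4335, 3357, 4917 and 4438 in DEX-1, DEX-2, PBS-1 and PBS-2, against 1771, 1791, 1605 and 1653 at 50 or more). Nucleotide synthesis genes went from 1321 through 3786 at 5 to 19 to 2159, with their highest level at 5 to 19 in 3 litters and at 20 to 49 in PBS-1 (4218 against 3939). The sums were taken over 1237, 91, 87, 143 and 186 cells, of which DEX-2 gave 7 at 2 to 4 and 16 at 5 to 19, and ranges of under 20 cells in a litter, DEX-1 and PBS-1 at 5 to 19 (18 and 19 cells) and PBS-1 at 2 to 4 (17) among them, carry the largest counting error.

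Single replication genes, pooled over the litters, showed a like course. Mcm5, a subunit of the replicative helicase, went from 51.4 CPM at 0 or 1 to 174 at 2 to 4 and 265 at 5 to 19, then to 175 and 79.7. Pcna, the sliding clamp, went through 59.5, 150, 274, 215 and 91.2, and E2f1, a factor of the E2F family, through 21.8, 77.6, 114, 49.4 and 10.6. Both peaked at 5 to 19, as did Ccne2, the S phase cyclin E2, at 18.0 CPM. Rrm2, the ribonucleotide reductase subunit, peaked 1 range later, at 335 in cells with 20 to 49. In DEX-2, with few cells in these ranges, Mcm5 and E2f1 were highest at 2 to 4, and in PBS-1 Ccne2 was highest at 20 to 49. E2f1 was lower in cells with 50 or more than in low-mitosis cells in 3 litters, while DEX-1 had 15.5 against 13.9 CPM.

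The mitosis lists were higher in each successive range of the sum. The 26 spindle and kinetochore genes summed to 149, 329, 1097, 2577 and 3631 CPM over the 5 ranges, and the 20 cyclins, kinases and APC/C genes to 393, 627, 1612, 2816 and 4314. Plk1, the polo-like kinase of mitotic entry, went from 14.4 at 5 to 19 to 165 at 50 or more, Ccnb1, cyclin B1, from 35.1 to 229, and Cdc20, the anaphase activator, from 54.0 to 274. Ccna2, cyclin A2, which acts in S phase and G2, was already at 106 in the cells with 5 to 19. Replication-dependent histones stood at 323, 324, 957, 2986 and 2726, with most of their increase between 5 to 19 and 20 to 49. Because the ranges are cut from genes of G2 and M phase in the same cells, the order of these courses is a description of the cells and was not tested.

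**Figure D3:**
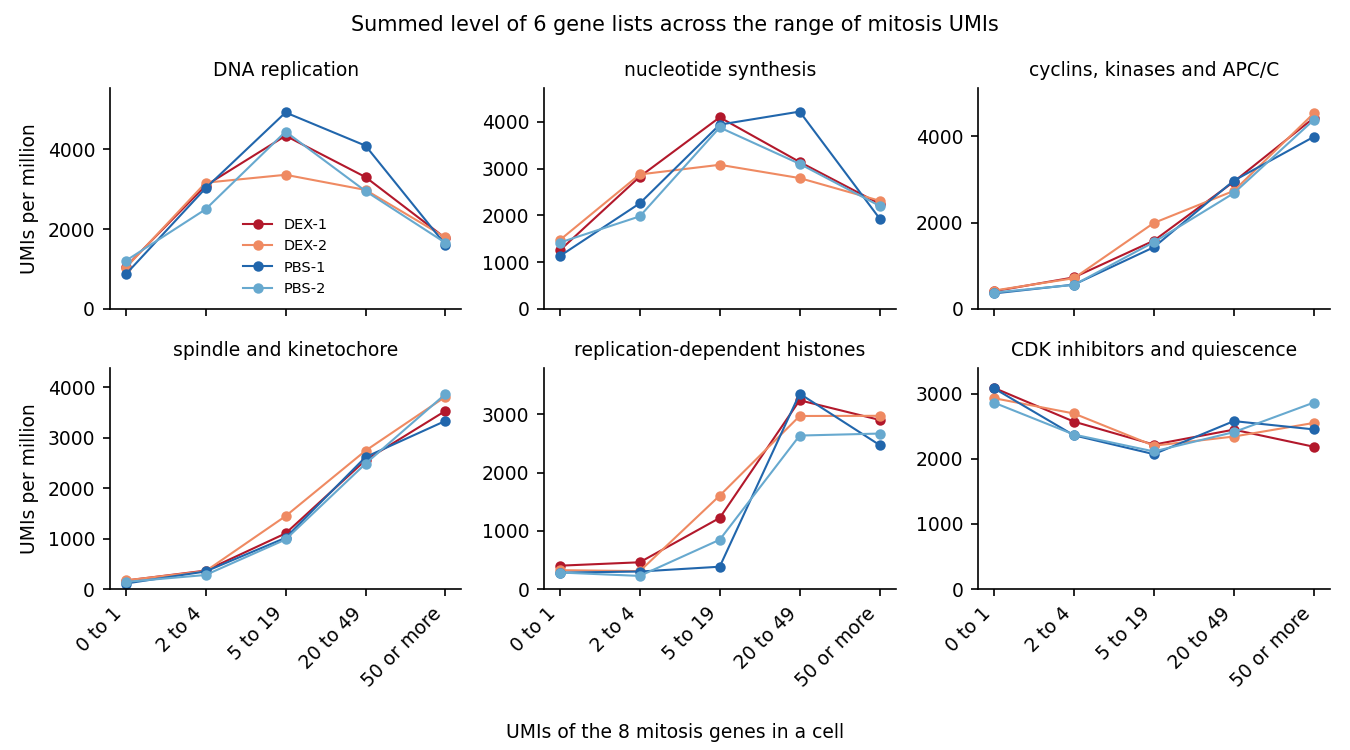
Summed CPM of 6 gene lists are plotted by litter for ranges of the 8-gene sum in a cell. Replication genes peak at 5 to 19 in each litter (3357 to 4917) and spindle genes climb to 3335 to 3867 at 50 or more. CDK inhibitor and quiescence genes stay between 2072 and 3090 throughout.

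Mitotic cells at low sums therefore carried more of the replication list in CPM and those at high sums more of the spindle list. A Plk1 UMI was found in 91.9% of the 186 cells with a sum of 50 or more, in 16.1% of the 87 cells at 5 to 19 and in 0.647% of low-mitosis cells.

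Mitotic and low-mitosis ILC2s of the same litter were then set side by side. The rule used this contrast, so the differences are given with no test. Of 9825 genes fitted, 24.7% were higher and 23.5% lower in mitotic cells in all 4 litters, and edgeR called 32.4% of 9813 genes outside the rule (17.8% higher, 14.6% lower), from which nothing is read here. Within the matched range of depth it called 10.9% of 5483, and 9.35% of 5238 with marker-rich cells left out too (199 and 57 cells).

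All 26 spindle and kinetochore genes were higher in mitotic cells in all 4 litters, with a median log2 difference of 5.45, and all 18 chromosome condensation genes were so with a median of 3.23. Of the 20 cyclins, kinases and APC/C genes 19 were, with a median of 5.94. Cdc20 stood at 207, 185, 184 and 172 CPM in the mitotic cells of DEX-1, DEX-2, PBS-1 and PBS-2, against 2.14, 2.42, 1.79 and 2.28 in low-mitosis cells. The 2 states did not overlap and litters within a state differed little. Hmgb2, a chromatin protein abundant in dividing cells, was at 2601 ± 132 against 336 ± 33.8 (SD, n = 4), and Cenpa, the centromeric histone variant, at 496 ± 33.5 against 30.3 ± 14.4. The exception among the cyclins list was Pttg1, securin, at 46.9 ± 6.85 and 46.4 ± 4.02. Within the matched depth and without marker-rich cells the medians were 5.03 for cyclins, 4.61 for the spindle list and 2.55 for condensation, and all genes of these lists that could be fitted there (17, 23 and 18) had a positive difference.

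For kinesins the low-mitosis cells could be at the floor. Kif2c, which dismantles kinetochore microtubules, reached 48.4, 31.6, 32.4 and 37.3 CPM in the mitotic cells of the litters and 0 in all low-mitosis cells, and Kif18b, its plus-end partner, reached 27.4, 25.5, 38.5 and 23.4 against 0. The floor of 3 counts in the low-mitosis sums lies at 1.14 to 1.45 CPM. Every mitotic litter was above it.

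Replication genes differed less within the matched range of depth. All 30 were higher in mitotic cells in all 4 litters, with a median log2 difference of 1.5, while at matched depth the median of the 25 genes fitted was 0.30 and 17 of them were positive. Without marker-rich cells too the median was 0.06 and 13 were positive, with depth medians of 14623 UMIs in mitotic and 13477 in low-mitosis cells. Mcm6, a helicase subunit, was at 191, 168, 202 and 195 CPM in mitotic and 117, 107, 88.7 and 125 in low-mitosis cells, higher in each litter (log2 0.79 ± 0.09, SE), and had a log2 difference of -0.68 at matched depth without marker-rich cells. Clspn, which relays replication stress to the checkpoint, kept a difference there, 1.81 after 4.07, and so did Rrm2, 3.6 after 4.90. The 20 nucleotide synthesis genes had a median of 0.79, then of -0.06 at matched depth and of -0.23 without marker-rich cells. Replication-dependent histones, whose transcripts are made in S phase, remained higher, with a median of 3.29 over 17 genes and of 3.31 over the 11 fitted at matched depth. Hist1h1b, a linker histone, was at 523 ± 46.4 CPM in mitotic cells (SD, n = 4). Most histone transcripts carry no poly(A) tail, so the library recovers them in part.

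Genes outside the cell cycle lists with the largest differences included several that act in division. Cdca3, a trigger of mitotic entry, was at 191, 199, 174 and 192 CPM in mitotic cells and at 2.14, 0.967, 0.896 and 1.90 in low-mitosis cells, with no overlap. Its log2 difference was 6.91, and 6.11 at matched depth without marker-rich cells. The same 2 values were 5.67 and 3.48 for the PCNA-binding factor Pclaf, 5.11 and 4.33 for Shcbp1, 4.33 and 3.67 for Lockd, a noncoding RNA beside Cdkn1b, and 3.99 and 3.54 for the importin Kpna2. They were 3.97 and 1.80 for the histone chaperone Asf1b, 3.10 and 2.01 for the formin Diaph3, 3.09 and 2.59 for Ccdc34, and 2.91 and 3.72 for the tubulin Tuba1c. These are among the 10 highest differences under the naming rule, so their size is part of why they are listed.

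CDK inhibitor and quiescence genes split by gene. Of 19 fitted, 5 were higher and 9 lower in mitotic cells in all 4 litters, beside 24.7% and 23.5% of all genes. The median log2 difference was -0.22, against -0.03 over all genes, and at matched depth without marker-rich cells the median of 16 was 0.40. Summed CPM of the list were 2987 at a sum of 0 or 1, then 2460, 2140, 2436 and 2531 in the ranges above. Cdkn2c, the p18 inhibitor of CDK4 and CDK6, was at 27.4, 29.9, 33.1 and 34.1 CPM in mitotic cells and 2.14, 0.484, 1.79 and 2.66 in low-mitosis cells, a log2 difference of 4.05 ± 0.28 (SE) and of 3.54 at matched depth. Every mitotic litter was above every low-mitosis litter. Cdkn2d, the related p19, was at 142, 103, 134 and 131 against 81.1, 62.9, 79.7 and 63.4, again without overlap (0.84, and 1.43 at matched depth without marker-rich cells). Rbl1, the p107 pocket protein that E2F itself induces, had 1.90 and 1.45.

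Other brakes stood level or lower. Cdkn1b, p27, was at 83.6, 58.9, 63.5 and 72.8 CPM against 78.9, 83.2, 82.0 and 80.5, with a log2 difference of -0.22 ± 0.11 (SE); the states overlapped. Along the range of the sum it went through 81.7, 60.3, 38.7, 62.2 and 82.9, lowest at 5 to 19. Btg1, an antiproliferative factor of resting lymphocytes, was at 269, 287, 284 and 254 against 579, 520, 614 and 530 and did not overlap (log2 -1.04), but at matched depth the difference was -0.13, and 0.00 without marker-rich cells. Ccng2, a cyclin of cell cycle exit, went the other way, 0.98 over all cells and 3.34 at matched depth without marker-rich cells.

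Of 25 ILC2 identity genes, 15 were lower and 4 higher in CPM in mitotic cells in all 4 litters, with a median log2 difference of -0.23, against a median of -0.03 over all genes. Il7r, the IL-7 receptor on which ILC2s depend, was at 484, 487, 381 and 423 CPM in mitotic cells and 794, 814, 686 and 739 in low-mitosis cells. No litter of one state overlapped the other (log2 -0.78 ± 0.05, SE). Rora, a transcription factor needed for ILC2s, was at 606, 598, 512 and 512 against 761, 788, 651 and 671, and Il1rl1 at 114, 139, 134 and 163 against 192, 227, 249 and 278. At matched depth without marker-rich cells Il7r had a log2 difference of 0.01, Rora of 0.14 and Il1rl1 of -0.16, and the list a median of -0.00 over 24 genes. With each cell thinned to 3000 UMIs, however, an Il7r UMI was found in 70.6% of mitotic and 85.9% of low-mitosis cells and a Rora UMI in 76.4 and 85.9%, lower in the mitotic cells of all 4 litters (unthinned 97.1 and 96.4%, and 99.5 and 96.9%). The part of depth in these differences was not tested.

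Some identity genes kept a difference at matched depth. Thy1, the surface marker of innate and T lymphocytes, was at 225, 187, 192 and 214 CPM against 147, 126, 116 and 160, higher in mitotic cells in each litter (log2 0.58 ± 0.07, SE), and had 0.47 at matched depth and 0.23 without marker-rich cells. Tcrg-C1, a T cell receptor gamma constant gene whose transcripts ILC2s carry, was at 248, 258, 471 and 462 against 546, 617, 658 and 865, lower in each litter (log2 -0.93, and -0.98 at matched depth without marker-rich cells). Arg1, arginase 1, had 0.26 over all cells and 0.96 there. With each cell thinned to 3000 UMIs, a Thy1 UMI was found in 45.3% of 415 mitotic and 29.5% of 1202 low-mitosis cells, and an Il1rl1 UMI in 33.3 and 50.1%, while unthinned shares were 81.0 and 48.7% for Thy1 and 77.9 and 73.0% for Il1rl1. The thinned shares of Arg1 were close, 34.9 and 33.3%, and litters differed in direction. In DEX-1, DEX-2, PBS-1 and PBS-2 they were 30.7, 46.8, 21.5 and 40.1% in mitotic cells against 27.5, 26.5, 37.7 and 40.6%.

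Effector genes were lower in CPM in most cases. Of 16 fitted, 10 were lower and 1 higher in mitotic cells in all 4 litters, with a median log2 difference of -0.36 and of -0.23 for the 13 at matched depth without marker-rich cells. Il4 was at 52.3, 41.3, 72.2 and 74.6 CPM in mitotic cells and 111, 86.6, 138 and 153 in low-mitosis cells, with no overlap (log2 -1.03, and -0.80 there). Il13 was at 125, 186, 178 and 214 against 176, 197, 176 and 248, and here the states overlapped (log2 -0.19 ± 0.08, SE). Calca, the neuropeptide precursor of CGRP, was at 3185, 2302, 2288 and 1103 against 6548, 4086, 6700 and 2296, lower in each litter (log2 -1.12), yet at matched depth it had 0.03, and 0.28 without marker-rich cells. Areg, amphiregulin, had -0.22 over all cells and 0.10 at matched depth without marker-rich cells, and the chemokine Ccl1 0.55 and 1.94.

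With each cell thinned to 3000 UMIs, Il13 was detected in 24.8% of mitotic and 22.1% of low-mitosis cells, Il5 in 5.78 and 4.66%, Areg in 55.2 and 44.4%, Calca in 83.1 and 87.0% and Il4 in 16.4 and 28.1%. Areg was higher in the mitotic cells of all 4 litters (59.4, 57.0, 53.8 and 52.1% against 42.7, 42.3, 43.3 and 48.9%), the reverse of its difference in CPM, and Il4 was lower in all 4 (14.9, 10.1, 19.4 and 19% against 25.9, 18.8, 32.2 and 34.5%). Unthinned, Il4 was found in 45.4 and 46.2%, Il13 in 43.5 and 32.1%, Areg in 71.9 and 53.4% and Calca in 93.8 and 92.0%. In mast-like cells Il5 was found in 0.0373% and Areg in 8.77%, and Calca in 61.5%. In the 36 neutrophil-like cells Calca was found in 8.33%, Areg in 16.7% and Il5 in 0 cells.

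Growth signals split by gene. Cdk4, the kinase of G1, was at 378, 364, 385 and 395 CPM against 240, 251, 217 and 246 with no overlap (log2 0.68), while Ccnd2, its cyclin D2 partner, was at 86.3, 72.9, 64.1 and 72.8 against 126, 115, 125 and 139 (log2 -0.78). At matched depth without marker-rich cells the lower level of Ccnd2 was kept at -0.92 and Cdk4 stood at -0.31. Bcl2, the survival factor, was lower (log2 -1.09) and had -0.45 there. Of the 25 genes fitted, 11 were lower and 5 higher in all 4 litters, with a median of -0.18.

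Of 19 glycolysis and hypoxia genes 6 were higher and 4 lower in all 4 litters, with a median log2 difference of -0.06, shares not far from the 24.7% and 23.5% of all genes fitted. Gapdh had 0.50, Pgk1 0.59 and Tpi1 0.58, each higher in 4 of 4 litters, and -0.17, -0.17 and -0.36 at matched depth without marker-rich cells, where the list median was -0.34 over 16 genes. Immediate early genes, which the sort itself can induce, had a median of -0.26 over 14 genes and then of 0.21 over 13, and Fos had 0.14 and 0.49. Of 16 glucocorticoid response genes 5 were higher and 7 lower in all 4 litters, with a median of -0.03. Nr3c1, the glucocorticoid receptor, was at 250, 260, 239 and 233 against 398, 359, 280 and 297, lower in each litter (log2 -0.43), and had -0.02 at matched depth without marker-rich cells.

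**Figure D4:**
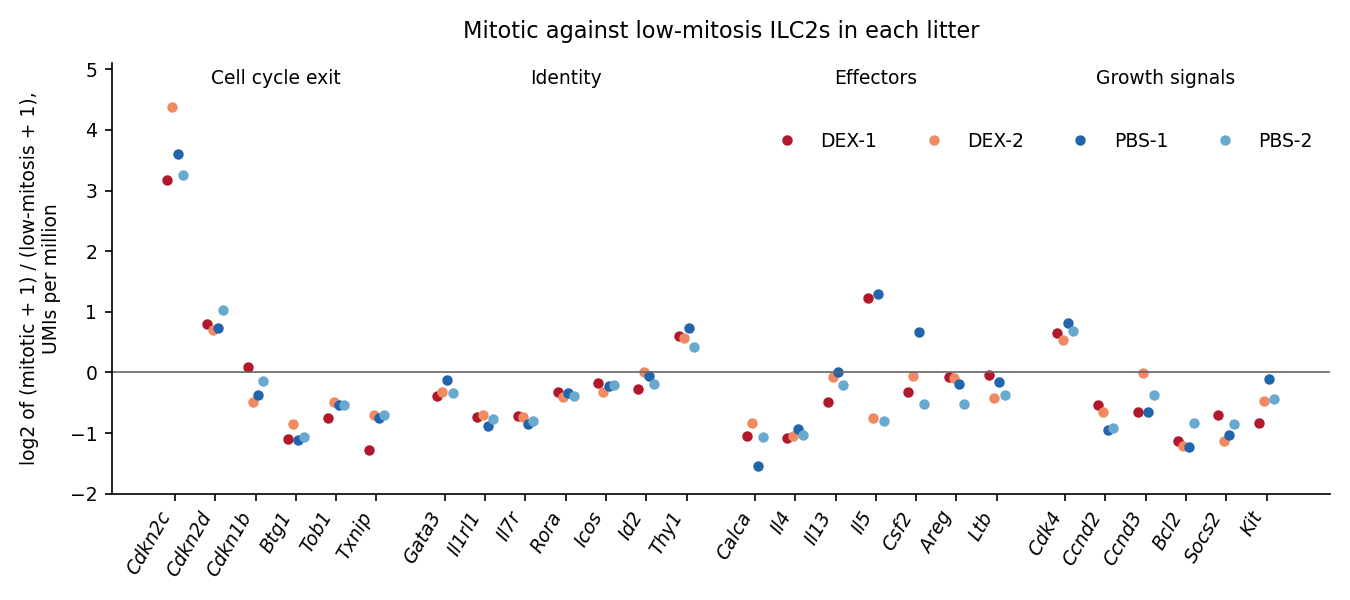
Each point is 1 litter's log2 ratio of mitotic to low-mitosis CPM, with 1 added to each, for genes of 4 lists. Cdkn2c lies above 3 in all 4 litters, Thy1 and Cdk4 lie above 0, Il7r, Rora and Il4 lie below 0, and Il5 and Csf2 have litters on both sides.

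The lower side of the naming rule held 10 genes as well. Rnf128, an E3 ligase of lymphocyte anergy, was at 79.1, 82.6, 159 and 157 CPM in mitotic and 241, 241, 462 and 471 in low-mitosis cells (log2 -1.57), and Ctla2a, a cysteine protease inhibitor, at 893, 926, 967 and 596 against 2366, 2483, 2776 and 1573 (log2 -1.44). Every litter was lower in its mitotic cells. At matched depth without marker-rich cells they had -0.24 and -0.07, and Pard3, a polarity gene at -1.38, had 0.68. N4bp2l1, Neb, Ctla2b and Hdc had -1.99, -1.37, -1.37 and -1.51 over all cells. Ager, Hopx and Emp2, at -1.69, -1.63 and -1.41, are alveolar epithelial genes, and they, N4bp2l1 and Hdc could not be fitted at that depth once marker-rich cells were left out.

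As a comparison with another dividing class, 222 mitotic and 2340 low-mitosis mast-like cells were cut by the same sum. The test of a difference between the classes in the change with mitosis (edgeR's quasi-likelihood interaction test) called 14.2% of 10869 genes, 4.77% with the larger value in ILC2s and 9.4% with the smaller. The split of 518 higher and 1022 lower is not read as a direction. It was 681 and 667 with the size factors of DESeq2, with which the median over all genes moved from -0.10 to 0.00, and it turned to 953 and 466 without marker-rich cells and to 1046 and 463 with a stricter hashtag call. Tubb5, a tubulin of dividing cells, had an interaction of 1.25 ± 0.10 (SE, adjusted p = 4.21e-06), and Lig1, the DNA ligase of replication, -1.80 ± 0.15 (adjusted p = 7.12e-06). The same sum cut the states in both classes, and no fit at matched depth was made for this comparison. Depth and place in the cycle cannot be told apart from class here, so these p-values are not read as support.

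DEX and PBS litters were compared within mitotic ILC2s to ask which genes differ in dividing cells after maternal glucocorticoid. With edgeR's quasi-likelihood F-test, 38 of 9177 genes passed an adjusted p of 0.05, which is 0.414% (15 higher, 0.163%; 23 lower, 0.251%), with 920 (10%) at an unadjusted p under 0.05. Among the 38 were Il2rb and Tnfrsf18, which helped to choose the cells and whose calls are no test, so that 36 of 9165 genes outside the rule were called. Cells of the low-mitosis state come from the same litters, so their values are set beside those of mitotic cells and are no separate support. There, 84 of 9948 genes were called (0.844%; 48 higher, 0.483%; 36 lower, 0.362%), these same rule genes among them. With 2 litters a group, leaving out 1 litter leaves a single one in its group, and which genes were called changed with the litter left out. Dependence on a single litter and the loss of a replicate cannot be told apart in such fits.

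Of the 36 genes outside the rule, 20 were called again in the same direction with marker-rich cells left out, 12 higher and 8 lower in DEX, 14 could not be tested there and 2 were not called. Without these cells 104 of 8477 genes were called (1.23%; 58 higher, 0.684%; 46 lower, 0.543%), and in low-mitosis cells 167 of 9122 (1.83%). All 20 had the same sign in low-mitosis cells, where 15 were called. The 14 that could not be tested include genes of lung epithelium, in which the marker-rich cells are high by choice. Lyz1, a lysozyme gene of epithelial and myeloid cells, was at 3.27 and 1.76 CPM in DEX litters and at 201 and 259 in PBS litters (log2 -6.44, adjusted p = 3.32e-05), and 1 cell gave 288 of its 297 UMIs in PBS-1 and another 505 of 576 in PBS-2. Cdc20b, a gene of multiciliated cells, had 46 and 63 UMIs in the DEX litters and 0 and 10 in the PBS litters, each from 1 cell. Of the others, Lyz2 had a log2 difference of -4.80, Sftpd -3.07, Sftpb -2.93, Meg3 -2.13, Tmem213 -1.99, Cldn18 -1.82, Hopx -1.80, Bcam -1.78 and Igfbp7 -1.36.

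Tnfrsf9, Ramp3 and Plaur, which encode receptors or a receptor partner, rose in DEX litters. Tnfrsf9, the costimulatory receptor 4-1BB (chr4:150914562-150946102, GRCm38), was at 118 and 148 CPM in the mitotic cells of DEX-1 and DEX-2 and 49.96 and 52.6 in those of PBS-1 and PBS-2. The groups did not overlap, and the log2 difference was 1.34 ± 0.15 (SE, adjusted p = 0.0113). Low-mitosis cells had 228 and 227 against 85.6 and 72.9 (log2 1.53). Ramp3, the receptor chaperone that lets calcitonin-like receptors bind adrenomedullin and CGRP, was at 75.8 and 106 against 37.1 and 33.7 (log2 1.33 ± 0.20, SE, adjusted p = 0.0388), and at 187 and 228 against 62.3 and 54.3 in low-mitosis cells. Plaur, the urokinase receptor, was at 180 and 191 against 91.8 and 102 (log2 0.91, adjusted p = 0.0175). All 3 were higher in both DEX litters in either state. Il2rb and Tnfrsf18, at 81.0 and 80.8 against 41.9 and 42.7 and at 431 and 383 against 198 and 251, helped to choose the cells and are given with no test.

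Crem, Gem and C1qtnf12 rose as well. Crem, a cAMP-responsive transcription factor, was at 189 and 236 CPM in DEX against 107 and 73.2 in PBS litters (log2 1.23 ± 0.18, SE, adjusted p = 0.0405), and Gem, a small GTPase that restrains calcium channels, at 303 and 346 against 146 and 187 (log2 0.93 ± 0.13, adjusted p = 0.0286). C1qtnf12, an adipokine-like secreted protein, was at 138 and 127 against 62.8 and 54.4 (log2 1.17 ± 0.13, adjusted p = 0.0113). DEX litters stood above PBS litters for each of them, and low-mitosis cells had log2 differences of 0.95, 0.52 and 1.10. The remaining higher genes kept without marker-rich cells were Isy1, Avpi1, Ifngr1, Rab27b, Lgals3 and Ms4a4b, with log2 differences from 0.59 to 1.92. Ms4a4b was at 26.8 and 25.5 against 8.10 and 5.84, and 37 of its 41 UMIs in DEX-1 came from 1 cell.

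The 8 lower genes that were kept include enzymes, a transporter and a receptor. Rnf128 (chrX:139563316-139673145) was at 79.1 and 82.6 against 159 and 157 CPM in mitotic cells, with the litters of a group nearly equal and no overlap (log2 -0.99 ± 0.11, SE, adjusted p = 0.0113). In low-mitosis cells it was at 241 and 241 against 462 and 471 (log2 -0.95), and the test of a difference between the states gave -0.01 ± 0.13. Slc7a8, an amino acid exchanger, was at 36.6 and 41.3 against 79.7 and 80.9 (log2 -1.07 ± 0.15, adjusted p = 0.0319), and Inpp4b, a phosphoinositide phosphatase, at 227 and 223 against 363 and 381 (log2 -0.75 ± 0.08, adjusted p = 0.0113). Alox5ap, which feeds leukotriene synthesis, was at 27.4 and 21.1 against 57.4 and 61.5 (log2 -1.29 ± 0.19, adjusted p = 0.0400), and the leukotriene receptor Ltb4r1 at 161 and 144 against 271 and 242 (log2 -0.76, adjusted p = 0.0329). Every DEX litter was below every PBS litter for these genes. Apol9b, an interferon-inducible gene with a close copy in the genome, was at 5.88 and 3.52 against 30.4 and 22.0 (log2 -2.41 ± 0.37, adjusted p = 0.0405). Akr1c13, one of a family of similar reductases, had -0.97.

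Tcrg-C1 (chr13:19214103-19217024) had the smallest adjusted p among the genes kept, with 248 and 258 CPM in DEX against 471 and 462 in PBS litters (log2 -0.90 ± 0.08, SE, adjusted p = 0.0034). In low-mitosis cells it was at 546 and 617 against 658 and 865, where the groups did not overlap either but the log2 difference of -0.39 was not called. The interaction of -0.49 was not called (adjusted p = 0.471, and 0.0996 without marker-rich cells), so the difference is not shown to be larger in mitotic cells.

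**Figure D5:**
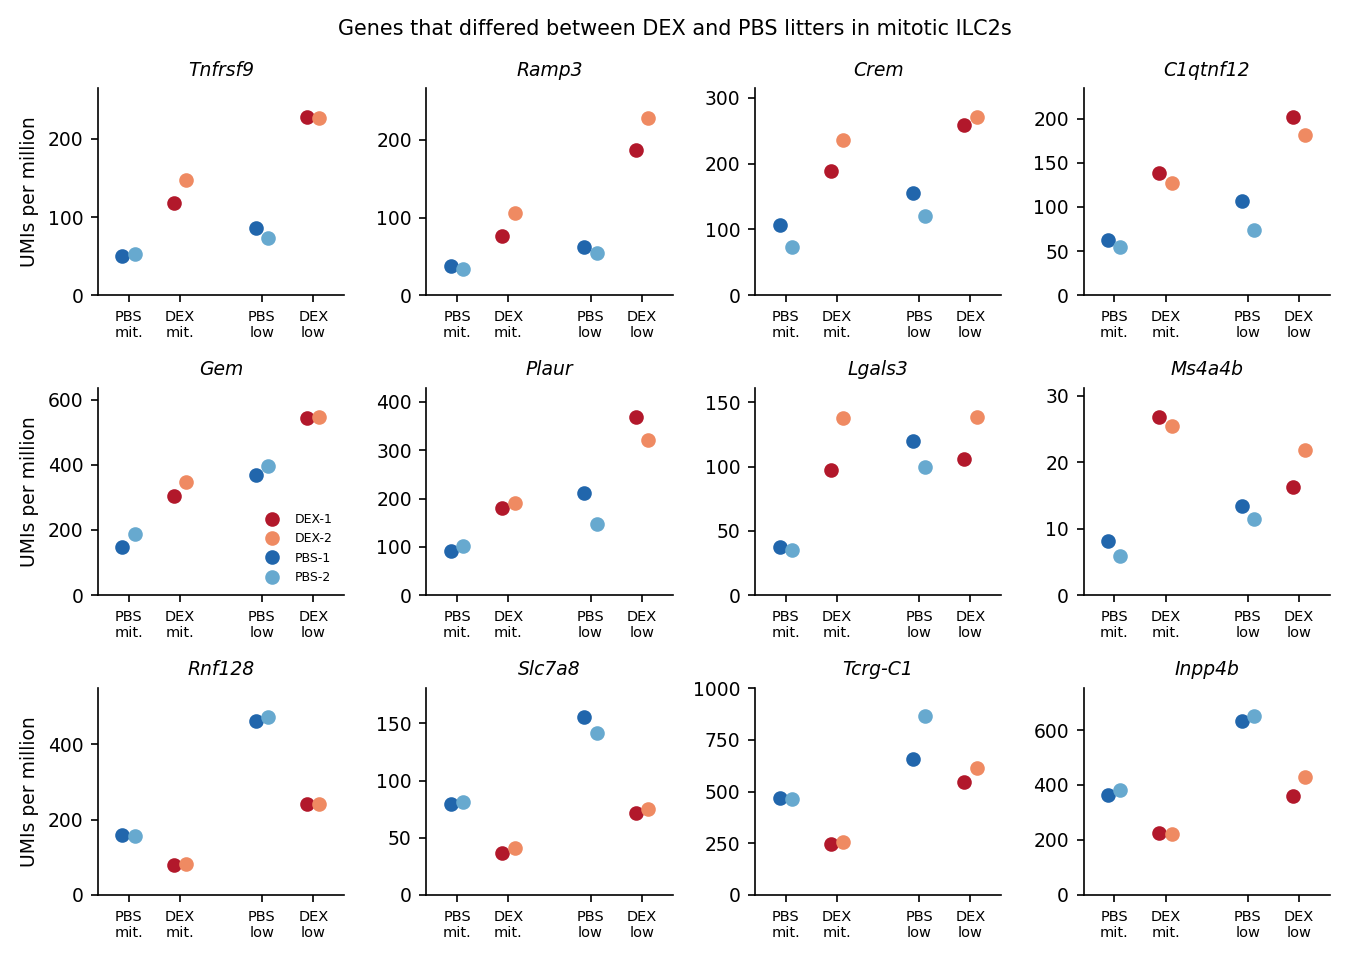
CPM of 12 genes are plotted per litter for mitotic (mit.) and low-mitosis (low) ILC2s of PBS and DEX litters, each point 1 litter and each axis starting at 0. The litters of a group stand together and apart from the other group for Tnfrsf9 (118 and 148 against 49.96 and 52.6) and Rnf128 (79.1 and 82.6 against 159 and 157) in mitotic cells, with the same order in low-mitosis cells, whereas for Lgals3 the low-mitosis litters overlap.

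Of 131 cell cycle genes tested between DEX and PBS in mitotic cells over 6 lists, edgeR called 0 and gave 10 (7.63%) an unadjusted p under 0.05, beside 0.414% and 10% of all genes, and DESeq2 called 0 and gave 2. The lists were unlike in this. Histones held 6 of the 10, out of 17 tested (35.3%), and the 2 of DESeq2, and 16 of the 17 had a positive log2 difference. Cyclins held 2, replication and nucleotide synthesis 1 each, and the spindle and condensation lists 0. Median log2 differences were 0.07 for cyclins, 0.10 for the spindle list, 0.08 for condensation, -0.07 for replication, -0.05 for nucleotide synthesis and 0.27 for histones. Without marker-rich cells 2 histone genes were called higher, as were 0.684% of all genes. With 0.414% of all genes called, a count of 0 in lists of this size does not set them apart. The 8 rule genes, whose sum chose the cells in both groups, are given only as a description, with log2 differences from -0.04 to 0.15.

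Of 16 glucocorticoid response genes tested in mitotic cells edgeR called 0, with 6 (37.5%, beside 10% of all genes) at an unadjusted p under 0.05, and DESeq2 called 0, with 2. Without marker-rich cells 1 was called higher, beside 0.684% of all genes. The list had a median log2 difference of 0.10. Nr3c1 was at 250 and 260 against 239 and 233 CPM (log2 0.09 ± 0.09, SE), Fkbp5, a receptor cochaperone that glucocorticoids induce, at 53.6 and 43.9 against 68.9 and 54.8 (log2 -0.33 ± 0.18), and Tsc22d3, which encodes GILZ, at 110 and 115 against 91.8 and 144 (log2 -0.11 ± 0.19). The litters overlapped for Tsc22d3. In low-mitosis cells Nr3c1 was higher in CPM in both DEX litters than in both PBS litters, by the values given above. With each cell thinned to the same depth, an Nr3c1 UMI was found there in 69.9 and 68.0% against 52.6 and 55.1%. The thinned shares of mitotic cells overlapped, at 59.4 and 44.3% against 50.5 and 44.4%. Of the 16 genes edgeR called 0 in low-mitosis cells, and 2 without marker-rich cells (1 higher, 1 lower). CDK inhibitor and quiescence genes had 0 of 19 called by edgeR in mitotic cells (3 at an unadjusted p under 0.05) and 0 by DESeq2 (2). By the same 4 counts growth signals had 0 of 25 (7) and 0 (4), glycolysis 0 of 19 (4) and 0 (2), and immediate early genes 0 of 13 (3) and 0 (3). Among identity genes 1 of 24 was called, Tcrg-C1, and among effectors 1 of 14, Ramp3.

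More effectors were called once marker-rich cells were left out, 7 of 14 in edgeR's test, beside 1.23% of all genes. Il5 was at 34.6 and 64.2 CPM in DEX against 22.3 and 19.3 in PBS litters over all mitotic cells (log2 1.20, adjusted p = 0.167), and had 1.25 without them (adjusted p = 0.00959). Calca was at 3185 and 2302 against 2288 and 1103, with DEX-2 and PBS-1 nearly equal, and had 0.76 without marker-rich cells (adjusted p = 0.00305) after 0.68. Il4 and Il13 were lower there, with log2 differences of -0.65 (adjusted p = 0.0391) and -0.54 (adjusted p = 0.0205), and so was Ccl1, at -1.19. Bcl2, at 64.7 and 57.1 against 89.1 and 122, had -0.90 (adjusted p = 0.00105), and Myc, a driver of growth and division, -0.99 (adjusted p = 0.00349). None of these genes was called over all mitotic cells, and leaving out marker-rich cells was chosen after the data were seen.

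Of 25 genes named for a DEX difference in earlier results of these data, 23 were tested in mitotic cells and 6 called, Lgals3, Ramp3 and Ms4a4b higher and Apol9b, Slc7a8 and Rnf128 lower. They were picked on the same litters and are no separate support.

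A test of whether the DEX difference itself differed between the states called 15 of 10505 genes (0.143%; 3 higher, 0.0286%; 12 lower, 0.114%), with 587 at an unadjusted p under 0.05. Lgals3, Pdcd1, Pclaf and Cenpa are described here. The other 11 include Lyz1, Sftpb, Scgb1a1 and Hbb-bs, genes of other lung or blood cells. Without marker-rich cells the count was 6 of 9602 (0.0625%; 3 higher, 0.0312%; 3 lower, 0.0312%), and 4 of the 15 were among them: Lgals3, Pdcd1, Pclaf and Scgb3a2.

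Lgals3, which encodes the glycan-binding lectin galectin-3 and is also a gene of macrophages and epithelium (chr14:47367751-47386160), was at 97.4 and 138 CPM in DEX against 37.1 and 35.0 in PBS litters in mitotic cells (log2 1.67 ± 0.19, SE, adjusted p = 0.0113). In low-mitosis cells it was at 106 and 139 against 120 and 99.5, where the litters overlapped. The difference between the states was 1.53 ± 0.18 (adjusted p = 0.00208), and 1.69 without marker-rich cells (adjusted p = 0.00695), where low-mitosis cells had a difference of 0.67 (adjusted p = 0.0147). Single cells weighed on these sums, since the top cell gave 46 of 149, 65 of 157, 20 of 55 and 11 of 78 UMIs in the mitotic cells of DEX-1, DEX-2, PBS-1 and PBS-2. The top 3 cells gave 53.0, 60.5, 65.5 and 32.1%. An Lgals3 UMI was found in 21 of 102, 23 of 79, 16 of 93 and 27 of 142 of these cells, so the difference in CPM rests on a minority of them.

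Pdcd1, the checkpoint receptor PD-1 (chr1:94038305-94052553), showed the reverse. It was at 43.8 and 39.5 against 45.2 and 30.1 in mitotic cells, where the litters overlapped, and at 98.2 and 87.1 against 32.2 and 24.7 in low-mitosis cells, where DEX litters were higher (log2 1.71 ± 0.17, adjusted p = 0.00178). The difference between the states was -1.54 ± 0.24 (SE, adjusted p = 0.0155) and -1.63 without marker-rich cells (adjusted p = 0.00637). In the mitotic cells of DEX-1, DEX-2, PBS-1 and PBS-2 the top cell gave 21 of 67, 4 of 45, 17 of 67 and 11 of 67 UMIs. A Pdcd1 UMI was found in 30 of 102, 24 of 79, 23 of 93 and 27 of 142 of these cells.

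Pclaf and Cenpa belong to division. Pclaf was at 723 and 658 against 717 and 664 CPM in mitotic cells, with litters overlapping, and at 22.7 and 20.3 against 4.03 and 8.36 in low-mitosis cells (interaction -1.74 ± 0.28, adjusted p = 0.0184). Cenpa was at 501 and 540 against 461 and 481, and at 42.9 and 42.6 against 16.1 and 19.8 (interaction -1.10 ± 0.18, adjusted p = 0.0176, and 0.076 without marker-rich cells). In both genes the difference lay in low-mitosis cells, whose levels were far below those of mitotic cells.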

How the data were processed

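Fetal lung cells of 4 litters were hashtagged, pooled and read in 1 droplet run with 2 libraries, gene expression and hashtags. The authors ran Cell Ranger multi version 7 with mm10 and deposited UMI counts of 32285 genes and 4 hashtags in 10648 barcodes (7.0.0 by the matrix header). These are raw counts, and intervals cover counting error only.

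Barcodes with at least 200 genes and at most 5% mitochondrial UMIs were kept (13 and 231 failed). Singlets had at least 10 UMIs of the top hashtag and at least 3 times those of the next, and 1811 others were left out. No other doublet caller was run, so pairs within a litter remain. Mast-like cells had 0 Gata3 and at least 3 Tyrobp, 5 Cpa3 and 1 Kit UMIs, and neutrophil-like cells 0 Gata3 and at least 20 UMIs of S100a8 plus S100a9. Counts were summed per litter, class and state and fitted with edgeR 4.0.16 (TMM, filterByExpr, quasi-likelihood F-test, litter as a block where states were compared) in R 4.3.3. P-values were adjusted by Benjamini-Hochberg over all genes tested, with calls at 0.05, and SE is that of the fitted log2 difference. DESeq2 1.42.0 was an alternative. The fits were tested on simulated counts. Levels by gene are TMM-scaled CPM (UMIs per 1000000 UMIs), those of rule genes, marker lists and ranges of the sum plain ones. Python 3.11.15, numpy 2.4.6, pandas 2.3.3 and scipy 1.17.1 were used.

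Members and gene lists were chosen with earlier results of these data known. Beyond the lists, named genes were the 10 largest differences each way among called genes: between states with a mean of at least 50 CPM, the same direction in all 4 litters and no place in a cell cycle list, and between DEX and PBS with at least 20 and litters that did not overlap. For each interaction they were the 10 smallest p-values. Other genes called between DEX and PBS, and those called only without marker-rich cells, were named after their values were seen. Gm, Rik, ribosomal and mitochondrial genes were not named. A gene that the rule names between states is not reported here. Promoters were matched by symbol, and the reference table used held none for the 20 replication-dependent histones.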

Additional observations from a re-analysis of the deposited data

Results flagged for a closer look

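The DEX difference of 15 genes differed between mitotic and low-mitosis ILC2s by the interaction test of edgeR (adjusted p under 0.05). The log2 difference of differences was 1.53 for Lgals3, also a gene of macrophages and epithelium, -1.54 for Pdcd1, -1.74 for Pclaf and -1.10 for Cenpa. Without marker-rich cells it was 1.69, -1.63, -1.89 and -1.003, of which that of Cenpa was not called.

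Among genes of secretory and alveolar epithelium it was 9.33 for Scgb3a2, 7.10 for Scgb1a1, -3.01 for Sftpb, -2.22 for Napsa and -2.50 for Sftpa1. In mitotic cells of DEX-1, 1 cell gave 637 of 658 UMIs of Scgb3a2 and 1 gave 1083 of 1106 of Scgb1a1. Without marker-rich cells the values were 5.91 for Scgb3a2, which was still called, and 2.68, 0.64, -0.06 and -0.02 for the others, which were not.

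It was -6.80 for Lyz1 and -4.21 for Lyz2, and -1.43 and -0.06 without marker-rich cells, with neither called. It was -6.16 for Hbb-bs, a globin of which 1 low-mitosis cell of DEX-1 held 591 of 598 UMIs, -2.08 for Meg3, -8.77 for Ackr3 and -3.87 for Adh1. These 4 could not be fitted without marker-rich cells. Ackr3 had 0 UMIs in the mitotic cells of both DEX litters, so that its fitted value is no bound.

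The change with mitosis differed between ILC2s and mast-like cells for 10 named genes. The log2 difference of differences was 1.88 for Ankrd44, 1.31 for B2m, 1.25 for Tubb5, 1.47 for Cd52, 4.06 for Tdrd5 and 0.75 for Laptm5, and -1.80 for Lig1, -0.97 for Pim1, -1.74 for Fam110a and -1.64 for Lmo4. The adjusted p-values in edgeR's test ranged from 4.21e-06 to 1.17e-05. They are not read as support, since the same sum cut the states in both classes and depth was not matched. The median over all genes was -0.10 with TMM and 0.00 with the size factors of DESeq2, so values are read relative to that shift.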

How the results depend on the processing

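Over 269 results and 18 alternatives, 3365 values were labelled the same, 283 weaker, 53 stronger and 40 reversed, and the rest were untested values that moved beyond their spread. For a gene, same meant the same direction and side of the threshold, weaker a lost call and stronger a gained one. For a count of calls these labels described how far the count itself changed, and same allowed a moderate change. The mean share of mitotic cells was lower in DEX litters throughout, from -1.69 points (sum of 10 or more) to -4.43 (sum of 3 or more). It ranged from -1.18 to -5.84 points with 1 litter left out. With a sum of 10 or more, and without marker-rich cells, the litters of the groups overlapped. With 2 litters per group and 79 to 142 mitotic cells per litter, low genes and small differences are limited by depth.

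Genes called between states numbered 3180, against 1625 with DESeq2, 597 at matched depth, 490 at matched depth without marker-rich cells, 2745 with no replicate block and 2475 to 2788 with 1 litter left out. Fewer cells entered the depth-matched fits, and their low-mitosis cells came from the deep end of that state. Between DEX and PBS in mitotic cells the 38 calls became 213 with the rule set per 10000 UMIs, 58 with a stricter hashtag call, 104 without marker-rich cells and 425 with no filter on low genes, 31 with DESeq2 and 0 to 48 with 1 litter left out, with 0 without DEX-1 and 25 without DEX-2. In low-mitosis cells the 84 calls became 167 without marker-rich cells, 379 with no filter and 57 to 211 with 1 litter left out. The 15 interaction calls became 52 (per 10000 UMIs), 9 (without the deepest 5% of cells), 6 (without marker-rich cells), 3 (DESeq2), 118 (no filter) and 39 to 71 with 1 litter left out. The 1540 calls against mast-like cells became 972 per 10000 UMIs and 755 to 1163 with 1 litter left out, and their split of 518 higher and 1022 lower turned to 923 and 415 with a sum of 10 or more, 708 and 264 per 10000 UMIs, 1046 and 463 with a stricter hashtag call, 953 and 466 without marker-rich cells, 1103 and 501 with no filter, 623 and 244 without DEX-2 and 546 and 209 without PBS-2, so that no direction is read from it. The cause of these shifts was not tested.

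Litter numbers did not pair the litters (correlation of same-numbered deviations -0.034 in mitotic and 0.0472 in low-mitosis cells). With the mother number as a replicate block 87 genes were called in mitotic cells and 225 in low-mitosis cells.

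Between states, log2 differences reversed at matched depth to 0.025 for Calca, -0.12 for Cdk4, 0.47 for Cish, -0.13 for Fkbp4, 0.017 for Il2rg, 0.025 for Il7r, 0.11 for Junb, -0.33 for Ncl, 0.068 for Nr4a1, 0.44 for Pard3, 0.63 for Per1, 0.10 for Rora, 0.29 for Tob1 and -0.14 for Tpi1. At matched depth without marker-rich cells they reversed to 0.10 for Areg, 0.0035 for Btg1, 0.28 for Calca, -0.31 for Cdk4, 0.45 for Cish, 0.016 for Egr1, -0.39 for Fkbp4, -0.17 for Gapdh, 0.015 for Il7r, 0.11 for Junb, 0.38 for Klf9, -0.60 for Ncl, 0.68 for Pard3, 0.77 for Per1, -0.17 for Pgk1, -0.11 for Ptges3, 0.14 for Rora, 0.05039 for Socs2, 0.37 for Tob1, -0.36 for Tpi1 and 0.35 for Txnip. Interactions reversed without the deepest 5% of ILC2s to 3.01 for Lyz2, 0.014 for Napsa, 0.69 for Sftpa1 and 1.82 for Sftpb, and without marker-rich cells to 0.64 for Sftpb. The cause of these reversals was not tested.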
